A study of Mus musculus with 8 samples.

Results

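The comparison described here is the difference between the transcript changes of a brown and a white adipocyte line during differentiation, that is, the change in BAC minus the change in 3T3-L1 for each gene, and within it the genes that moved in opposite directions. Of 12863 genes tested in both lines, 1281 met that description: 542 (4.21% of the genes tested) rose in BAC and fell in 3T3-L1, and 739 (5.75%) fell in BAC and rose in 3T3-L1. BAC are brown preadipocytes from the interscapular brown fat of newborn mice, immortalised with a viral large T antigen. 3T3-L1 is an embryo-derived fibroblast line that forms white-type fat cells. The 8 libraries were poly(A) RNA-seq of BAC at day 4 of differentiation (2 libraries) and BAC at day 0 (2 libraries), and of 3T3-L1 at day 6 (2 libraries) and 3T3-L1 at day 0 (2 libraries). All groups carried a WT genotype. Cells at day 0 were confluent and had not yet been induced, and both lines then received the same labelled medium, with IBMX, indomethacin, dexamethasone, insulin and T3 until day 2 and insulin with T3 afterwards. Each line is a single cell line, the labels name no separate cultures behind the 2 libraries of a group, and the p-values therefore measure the spread between these libraries, which may be technical. The lines were also sampled at different days and deposited as separate count tables, so line, day of sampling and table cannot be told apart in any difference below.

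During adipogenesis, the hormone mixture induces C/EBP factors and then PPARG, the nuclear receptor that switches on the fat cell programme, while proliferation stops and the fibroblast matrix is withdrawn. Brown adipocytes additionally build many mitochondria and UCP1, a proton carrier that releases heat, and white adipocytes mainly store triglyceride and secrete adipokines. Genes of both programmes therefore usually move the same way in the 2 kinds of cell, and a gene that moves in opposite directions stands outside that shared course.

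The levels below are CPM, counts scaled to a common library size with TMM factors (a trimmed mean of ratios between libraries), and a change is the log2 ratio of day 4 over day 0 in BAC or of day 6 over day 0 in 3T3-L1 from 1 edgeR quasi-likelihood fit over all 8 libraries, with its SE. A gene is said to have risen or fallen where the Benjamini-Hochberg adjusted p was under 0.05. The libraries held 9045849 to 10160636 counts each. The brown markers Ucp1 and Cidea matched the labels of the lines. Ucp1, the thermogenic uncoupler, had 49.2 and 20.2 CPM in BAC at day 4 against 0 and 0 CPM at day 0, and 0.242 and 0 CPM in 3T3-L1 at day 6 against 0 and 0 CPM at day 0, and Cidea, which enlarges lipid droplets in brown fat, had 279 and 222 CPM in BAC at day 4 against 0 and 0 CPM at day 0, and 1.57 and 1.83 CPM in 3T3-L1 at day 6 against 0 and 0 CPM at day 0. Cox7a1, Cox8b and Prdm16 also had more counts in BAC at day 4 than in 3T3-L1 at day 6. Ppargc1a was nearly level, with 391 and 384 against 360 and 365 counts, and at day 0 had 7 and 12 against 216 and 213. Ebf2 had 1237 and 1223 counts in BAC at day 4 against 1489 and 1373 at day 0, and Dio2 had 5 and 3 at day 4. Adipoq, the adipokine of mature fat cells, had 1335 and 1330.0 CPM in BAC at day 4 against 24.1 and 19.9 CPM at day 0, and 5234 and 5296 CPM in 3T3-L1 at day 6 against 1.49 and 0.496 CPM at day 0. The summed level of 8 adipocyte markers was 20450 to 21530 CPM in BAC at day 4 against 894.9 to 914.2 CPM at day 0, and 45080 to 46720 CPM in 3T3-L1 at day 6 against 885.0 to 1001 CPM at day 0. That of 8 brown markers was 669.9 to 793.2 CPM in BAC at day 4 against 134.3 to 142.1 CPM at day 0. In 3T3-L1 it was 103.5 to 106.0 CPM at day 6 against 27.38 to 28.03 CPM at day 0. The summed level of 7 preadipocyte markers moved the other way, with 199.1 to 203.6 CPM in BAC at day 4 against 9240 to 9333 CPM at day 0, and 2311 to 2449 CPM in 3T3-L1 at day 6 against 14270 to 14790 CPM at day 0. Of markers of other cells, the 6 leukocyte markers summed to 6.18 to 8.64 CPM in BAC at day 4 against 7.69 to 8.28 CPM at day 0, and to 4.87 to 5.21 CPM in 3T3-L1 at day 6 against 15.97 to 19.12 CPM at day 0, with Ptprc and Adgre1 at 0 in all groups. The 6 skeletal muscle markers summed to at most 5.93 CPM, the 4 epithelial markers to at most 3.04 CPM and the 4 Schwann cell markers to at most 16.7 CPM in any library. The 5 endothelial markers summed to 0.115 to 0.816 CPM in BAC at day 4 against 16.25 to 18.25 CPM at day 0, and the 6 bone and cartilage markers to 7.69 to 8.18 CPM in BAC at day 4 against 80.9 to 82.2 CPM at day 0. In BAC at day 0, Kdr made up most of the endothelial sum, with 170 and 182 counts against 7 and 13 of Tek, the next highest. Runx2, Sox9 and Col2a1 made up most of the bone and cartilage sum there. In 3T3-L1, the endothelial markers summed to 1.10 to 1.21 CPM at day 6 against 1.69 to 2.28 CPM at day 0, and the bone and cartilage markers to 28.7 to 28.8 CPM at day 6 against 138.2 to 143.7 CPM at day 0. In these bulk libraries, fewer cells of a kind and less RNA per cell cannot be told apart, and the part of undifferentiated cells in any result below was not tested.

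Most genes that changed in both lines did so in the same direction. In BAC 4854 genes rose (37.7% of those tested) and 5432 fell (42.2%), and in 3T3-L1 4727 rose (36.7%) and 4702 fell (36.6%). Of the 7864 genes called in both lines (61.1%), 3191 rose in both (24.8%) and 3392 fell in both (26.4%), so the 1281 opposite movers made up 9.96% of the genes tested and 16.3% of those called in both. The interaction of line and day, which tests the difference of the 2 changes directly, passed for 7590 genes (59.0%), with 3257 changes higher in BAC (25.3%) and 4333 lower in BAC (33.7%). All 1281 opposite movers were among them, which the rule largely fixes. The other interaction genes were 3686 that moved the same way by different amounts, 2577 that were called in 1 line and 46 that were called in neither. The plot of both changes for every gene shows the opposite movers in the upper left and lower right quadrants, beside the far longer cloud of genes that moved together.

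**Figure D1:**
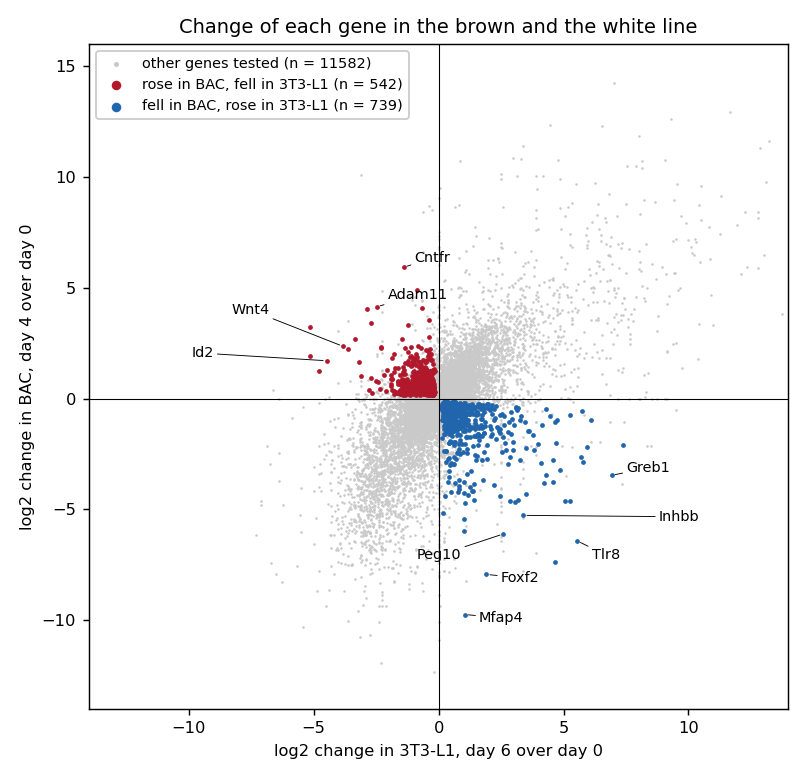
Log2 change in BAC (day 4 over day 0, vertical) against log2 change in 3T3-L1 (day 6 over day 0, horizontal) for each of 12863 genes tested. Red points are the 542 genes that rose in BAC and fell in 3T3-L1, blue points the 739 that fell in BAC and rose in 3T3-L1, grey points all others, and 10 members are named. Positions of genes without a count in 1 group, such as Greb1, Tlr8, Foxf2 and Mfap4, are fitted values and give no fold.

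Opposite movement was mostly small. The median change of the 542 genes was 0.55 in BAC and -0.63 in 3T3-L1, and that of the 739 genes was -0.65 in BAC and 0.56 in 3T3-L1. The smaller of the 2 changes was under 2-fold for 1117 of the 1281 genes, with a median of 0.41 on the log2 scale. Changes of 2-fold or more in each line left 45 genes that rose in BAC and fell in 3T3-L1 (0.35% of those tested) and 119 that fell in BAC and rose in 3T3-L1 (0.925%). The 2 libraries of each day lay apart from those of the other day in both lines for 538 of the 542 and 735 of the 739 genes, against 76.5% of all genes tested, which the rule largely fixes. Just inside the threshold stood Sod3, an extracellular superoxide dismutase, with changes of -0.44 ± 0.10 in BAC and 0.15 ± 0.07 in 3T3-L1, and Hscb, a mitochondrial co-chaperone of iron-sulfur cluster assembly, with 1.23 ± 0.12 in BAC and -0.35 ± 0.16 in 3T3-L1. Just outside stood Atf1, a CREB-family factor, with 0.16 ± 0.08 in BAC and -0.29 ± 0.08 in 3T3-L1, and Smc5, a subunit of a DNA repair complex, with 0.16 ± 0.07 in BAC and -0.69 ± 0.08 in 3T3-L1.

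The balance of the 2 directions depended on the scaling factors. With upper-quartile factors in place of TMM, 706 genes rose in BAC and fell in 3T3-L1 and 565 did the reverse, and without BAC day 0 replicate 1 or 2 the numbers were 663 against 503 and 641 against 497. Library size alone, which moved the median change of all genes to -0.28 in both lines from -0.05 in BAC and 0.00 in 3T3-L1, gave 602 against 573. Of the 542 genes that rose in BAC and fell in 3T3-L1, 310 were still called so under library size, upper-quartile factors and DESeq2 alike, as were 330 of the 739 that did the reverse. Small changes are therefore given relative to the TMM scaling.

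The members with the largest changes that rose in BAC and fell in 3T3-L1 included several regulators of signalling and differentiation. Id2, an inhibitor of basic helix-loop-helix factors, had 95.9 and 104 CPM in BAC at day 4 against 29.97 and 31.4 CPM at day 0, and 1.94 and 1.83 CPM in 3T3-L1 at day 6 against 47.2 and 37.2 CPM at day 0. Its changes were 1.71 ± 0.09 in BAC and -4.48 ± 0.19 in 3T3-L1, and the difference of 6.18 ± 0.21 had an edgeR adjusted p of 4.7e-18. The BAC libraries of day 4 were the highest of the 8 and the 3T3-L1 libraries of day 6 the lowest. Wnt4, a secreted Wnt ligand, had 3.23 and 1.86 CPM in BAC at day 4 against 0.884 and 0.0891 CPM at day 0, and 1.09 and 1.096 CPM in 3T3-L1 at day 6 against 16.6 and 14.7 CPM at day 0, with changes of 2.35 ± 0.50 in BAC and -3.82 ± 0.31 in 3T3-L1. Wnt4 was thus near its detection limit in BAC, where 1 library of day 0 held 1 count, and the fall in 3T3-L1 was the larger of its changes. Cntfr, the ligand-binding receptor chain for ciliary neurotrophic factor, showed the reverse weighting. It had 62.3 and 52.2 CPM in BAC at day 4 against 0.707 and 1.16 CPM at day 0, and 0.484 and 0.365 CPM in 3T3-L1 at day 6 against 0.694 and 1.59 CPM at day 0, and its changes were 5.92 ± 0.20 in BAC and -1.40 ± 0.61 in 3T3-L1. Lmcd1, a LIM domain cofactor that restrains GATA factors, had 13.7 and 8.63 CPM in BAC at day 4 against 2.12 and 2.32 CPM at day 0, and 1.21 and 0.974 CPM in 3T3-L1 at day 6 against 6.14 and 4.86 CPM at day 0, and moved by about the same amount in each line.

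Adam11, a neuronal membrane protein of the disintegrin family without a working protease site, had 71.3 and 70.4 CPM in BAC at day 4 against 3.89 and 4.098 CPM at day 0, and 0.242 and 0.487 CPM in 3T3-L1 at day 6 against 1.88 and 2.28 CPM at day 0. Its changes were 4.14 ± 0.13 in BAC and -2.47 ± 0.47 in 3T3-L1, and all 4 3T3-L1 libraries lay under the BAC libraries of day 0. Neurl1b, an E3 ubiquitin ligase that acts on Notch ligands, had 42.3 and 41.4 CPM in BAC at day 4 against 17.2 and 16.5 CPM at day 0, and 0.121 and 0.244 CPM in 3T3-L1 at day 6 against 0.694 and 0.893 CPM at day 0. The 3T3-L1 libraries of day 6 held 3 counts in all, a ratio of 4.36 at day 0 over day 6 with an exact 95% counting interval of 1.25 to 23.3. Tbkbp1, an adaptor of the kinase TBK1, changed by 1.69 ± 0.10 in BAC and -1.24 ± 0.20 in 3T3-L1, and Tbc1d8, a protein with a Rab GTPase-activating domain, by 1.27 ± 0.14 in BAC and -1.38 ± 0.32 in 3T3-L1.

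A pair of neuronal channel genes were in the same set. Grik5, a subunit of kainate-type glutamate receptors, had 54.4 and 57.1 CPM in BAC at day 4 against 8.84 and 8.55 CPM at day 0, and 34.03 and 36.4 CPM in 3T3-L1 at day 6 against 94.2 and 102 CPM at day 0. The 2 lines exchanged their order, with 3T3-L1 above BAC at day 0 and below it after differentiation. Hcn2, a channel opened by hyperpolarisation, had 54.3 and 49.2 CPM in BAC at day 4 against 13.6 and 15.9 CPM at day 0, and 0.121 and 0.244 CPM in 3T3-L1 at day 6 against 0.793 and 0.596 CPM at day 0, and its 3 counts in 3T3-L1 at day 6 give a ratio of 3.81 at day 0 over day 6 with an exact 95% counting interval of 1.06 to 20.7. Among the other genes of this set, Msh5, which stabilises meiotic crossovers, had 11.5 and 13.5 CPM in BAC at day 4 against 3.27 and 2.85 CPM at day 0, and 1.09 and 1.22 CPM in 3T3-L1 at day 6 against 3.57 and 4.37 CPM at day 0. Sycp2, a component of the synaptonemal complex, changed by 1.58 ± 0.46 in BAC and -1.36 ± 0.13 in 3T3-L1, and Rad51b, a gene of recombination repair, by 1.38 ± 0.16 in BAC and -1.63 ± 0.29 in 3T3-L1. Each was at a modest level, of 16.3 CPM or less in BAC and 33.7 CPM or less in 3T3-L1. Synm, an intermediate filament protein of muscle, had 4.15 and 5.59 CPM in BAC at day 4 against 1.59 and 1.51 CPM at day 0, and 7.51 and 6.33 CPM in 3T3-L1 at day 6 against 59.1 and 67.0 CPM at day 0, and Eno3, the muscle form of the glycolytic enzyme enolase, had 43.6 and 45.2 CPM in BAC at day 4 against 10.5 and 10.3 CPM at day 0, and 9.45 and 11.7 CPM in 3T3-L1 at day 6 against 26.5 and 23.4 CPM at day 0. The days did not overlap in either line for these 2 genes, which the rule for opposite movers largely fixes.

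The members with the largest changes that fell in BAC and rose in 3T3-L1 included secreted factors and their modulators. Inhbb, the beta B subunit of inhibin and activin, had 0.576 and 0.233 CPM in BAC at day 4 against 14.6 and 17.7 CPM at day 0, and 58.9 and 54.9 CPM in 3T3-L1 at day 6 against 5.85 and 4.96 CPM at day 0. Its difference of -8.66 ± 0.31 had an edgeR adjusted p of 1.3e-17. Igfbp5, a binding protein that modulates IGF action, had 1.27 and 1.98 CPM in BAC at day 4 against 40.2 and 41.8 CPM at day 0, and 7.27 and 8.53 CPM in 3T3-L1 at day 6 against 0.793 and 1.09 CPM at day 0, so that the highest of its 4 group levels was BAC at day 0. Apcdd1, a membrane inhibitor of Wnt signalling, had 8.53 and 10.5 CPM in BAC at day 4 against 45.4 and 44.9 CPM at day 0, and 238 and 229.8 CPM in 3T3-L1 at day 6 against 21.2 and 20.2 CPM at day 0, with changes of -2.25 ± 0.11 in BAC and 3.497 ± 0.08 in 3T3-L1. For all 3 genes the days did not overlap in either line, which the rule for opposite movers largely fixes. Ntn3, a netrin, changed by -2.31 ± 0.51 in BAC and 2.68 ± 0.16 in 3T3-L1. Greb1, an oestrogen-responsive gene in human breast cancer cells, had 2.305 and 2.797 CPM in BAC at day 4 against 28.9 and 27.7 CPM at day 0, and 1.09 and 2.07 CPM in 3T3-L1 at day 6 against 0 and 0 CPM at day 0. The 3T3-L1 libraries of day 0 held no count of Greb1. Against a floor of 3 counts over that group its level at day 6 was 10.6-fold higher, with the counts of day 6 taken as exact.

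Several of these genes encode membrane proteins. Kcnma1, the large-conductance calcium-activated potassium channel, had 0.2305 and 0.3497 CPM in BAC at day 4 against 6.72 and 5.26 CPM at day 0, and 10.5 and 11.1 CPM in 3T3-L1 at day 6 against 0.892 and 0.993 CPM at day 0. Pcdh1, a protocadherin, changed by -2.66 ± 0.47 in BAC and 2.86 ± 0.16 in 3T3-L1, and Podxl2, a podocalyxin-like sialomucin, by -2.75 ± 0.14 in BAC and 3.26 ± 0.56 in 3T3-L1. Cldn15, a claudin that forms paracellular cation pores in gut, had 14.7 and 12.9 CPM in BAC at day 4 against 57.8 and 58.6 CPM at day 0, and 132 and 142 CPM in 3T3-L1 at day 6 against 6.74 and 10.4 CPM at day 0, with changes of -2.07 ± 0.12 in BAC and 3.996 ± 0.11 in 3T3-L1. Enpep, the aminopeptidase that trims angiotensin, had a clear fall in BAC and few counts in 3T3-L1. It had 2.305 and 1.98 CPM in BAC at day 4 against 32.97 and 31.3 CPM at day 0, and 1.09 and 0.853 CPM in 3T3-L1 at day 6 against 0.297 and 0.0993 CPM at day 0. Tlr8, an endosomal sensor of single-stranded RNA, had 0 and 0 CPM in BAC at day 4 against 1.33 and 0.891 CPM at day 0, and 21.1 and 17.2 CPM in 3T3-L1 at day 6 against 0.396 and 0.397 CPM at day 0. Its level in BAC at day 4, where no count was seen, was 6.38-fold lower than at day 0 against the same kind of floor.

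Peg10, an imprinted gene derived from a retrotransposon, reached the highest CPM of the 15 genes with the largest opposite changes in this direction. It had 4.49 and 4.78 CPM in BAC at day 4 against 328 and 314 CPM at day 0, and 427 and 447 CPM in 3T3-L1 at day 6 against 69.2 and 75.6 CPM at day 0. The changes were -6.11 ± 0.11 in BAC and 2.59 ± 0.07 in 3T3-L1, and its difference of -8.70 ± 0.13 had an edgeR adjusted p of 9.7e-25. BAC at day 0 and 3T3-L1 at day 6 were its 2 highest groups, and BAC at day 4 the lowest. Nav3, a microtubule-associated neuron navigator, had 7.14 and 9.21 CPM in BAC at day 4 against 31.6 and 35.2 CPM at day 0, and 53.5 and 49.4 CPM in 3T3-L1 at day 6 against 7.23 and 9.23 CPM at day 0. B4galt6, a lactosylceramide synthase, had 2.77 and 3.38 CPM in BAC at day 4 against 35.8 and 31.98 CPM at day 0, and 0.363 and 0.122 CPM in 3T3-L1 at day 6 against 0 and 0 CPM at day 0. Its rise in 3T3-L1 rested on 4 counts at day 6 against none at day 0. This is 1.63-fold against a floor of 3 counts and gives no lower limit, as the 4 counts are themselves uncertain. Fam69c, a kinase-like protein of the secretory pathway, had 2.19 and 2.21 CPM in BAC at day 4 against 56.2 and 53.4 CPM at day 0, and 0.121 and 0.853 CPM in 3T3-L1 at day 6 against 0 and 0 CPM at day 0. Its 8 counts in 3T3-L1 at day 6 against none at day 0 are 3.27-fold against the same floor, again not a lower limit. The plot of CPM by library shows 12 of these genes, with the 2 libraries of each group close together for most of them.

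**Figure D2:**
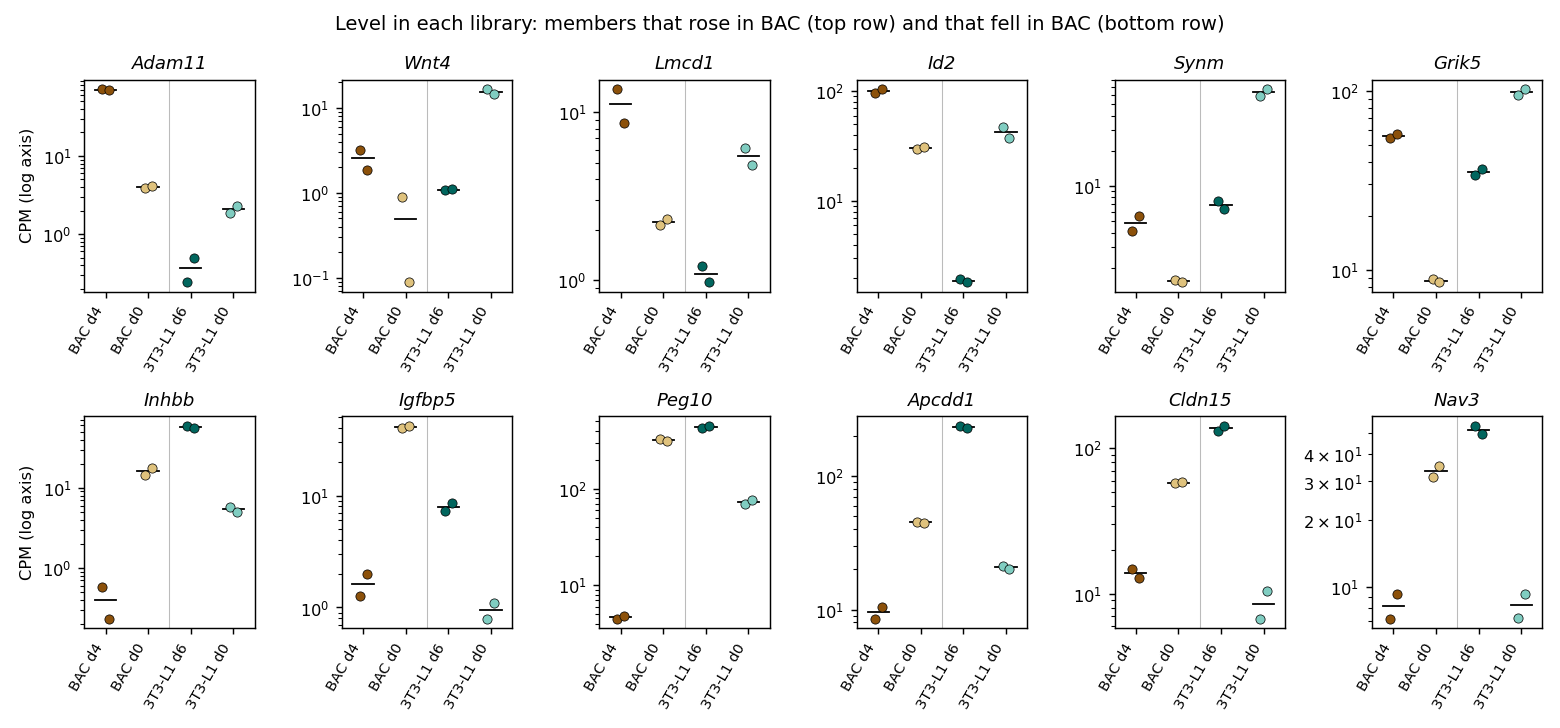
CPM (log axis) of 12 members in each library, with the line at the group mean of 2 libraries. In the top row (Adam11, Wnt4, Lmcd1, Id2, Synm and Grik5) BAC at day 4 lies above BAC at day 0 and 3T3-L1 at day 6 below 3T3-L1 at day 0, and in the bottom row (Inhbb, Igfbp5, Peg10, Apcdd1, Cldn15 and Nav3) the order is reversed.

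Of 57 lists of genes with a shared role, 29 held 3 or more opposite movers, 16 held 1 or 2, and 12 held none. These lists are described below by counts and medians beside those of all genes tested, whose median change was -0.05 in BAC and 0.00 in 3T3-L1, with a median difference of -0.11. The bar plot of members per list shows that cytosolic ribosomal proteins and DNA replication genes lay mostly on the side of a rise in BAC, and sterol synthesis, endoplasmic reticulum chaperones, collagens and interferon genes on the other.

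**Figure D3:**
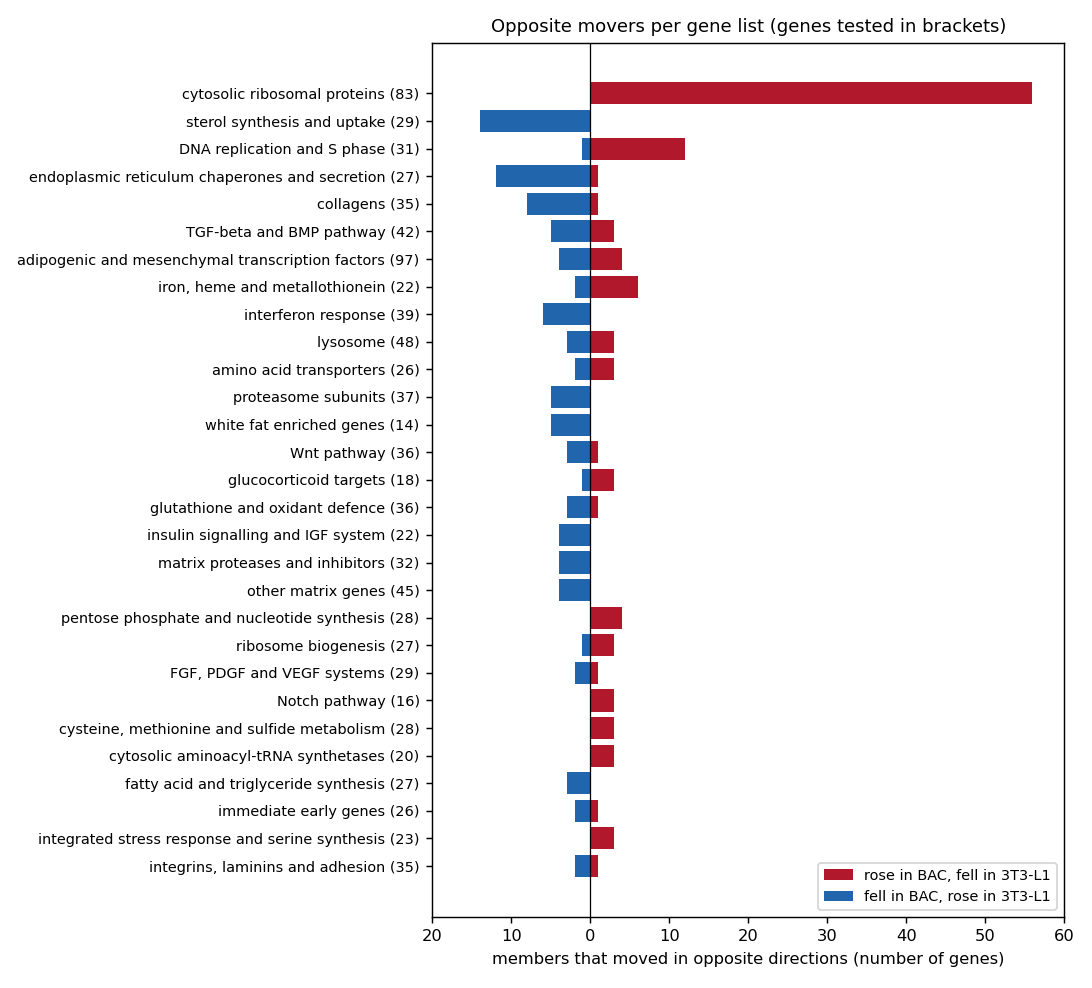
Number of members that moved in opposite directions in each of the 29 lists with 3 or more such genes, with the number of genes tested in brackets. Bars to the right count genes that rose in BAC and fell in 3T3-L1, and bars to the left genes that fell in BAC and rose in 3T3-L1.

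Of the 57 lists, sterol synthesis and uptake held the most genes that fell in BAC and rose in 3T3-L1. Cells make cholesterol from acetyl-CoA through mevalonate and squalene, and the SREBP2 factor activates this route when membrane sterol is low. Of 29 genes tested, 14 (48.3%) fell in BAC and rose in 3T3-L1, none did the reverse, and 24 had a lower change in BAC by the interaction test, against 33.7% of all genes. The median change was -0.39 in BAC and 2.52 in 3T3-L1. In all, 15 members fell and 10 rose in BAC, and 1 fell and 26 rose in 3T3-L1. Mvk, mevalonate kinase, had 22.2 and 19.8 CPM in BAC at day 4 against 48.1 and 47.1 CPM at day 0, and 85.3 and 80.3 CPM in 3T3-L1 at day 6 against 28.8 and 30.6 CPM at day 0. Its changes were -1.18 ± 0.10 in BAC and 1.48 ± 0.08 in 3T3-L1, and the difference of -2.66 ± 0.13 had an edgeR adjusted p of 5.0e-15. The days were apart in each line, which the rule largely fixes, and 3T3-L1 at day 6 was the highest group of the 4.

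Other sterol members, chosen here after their values were seen, show how the list varied. Srebf2, which encodes SREBP2 itself, changed by -1.15 ± 0.07 in BAC and 0.38 ± 0.07 in 3T3-L1, and Sqle, squalene epoxidase, by -1.18 ± 0.08 in BAC and 3.03 ± 0.08 in 3T3-L1. Sqle had 63.6 and 53.97 CPM in BAC at day 4 against 126 and 139.8 CPM at day 0, and 634 and 652 CPM in 3T3-L1 at day 6 against 81.3 and 76.4 CPM at day 0. Insig1, which retains the SREBP complex in the endoplasmic reticulum, rose in both lines, with 1.44 ± 0.07 in BAC and 3.41 ± 0.08 in 3T3-L1. Npc1, which exports cholesterol from lysosomes, stood apart from the list with 1.61 ± 0.08 in BAC and -0.18 ± 0.09 in 3T3-L1, and its small change in 3T3-L1 had an edgeR adjusted p of 0.098. The summed level of the 29 genes was 2580 and 2356 CPM in BAC at day 4 against 2527 and 2552 CPM at day 0, and 8105 and 8128 CPM in 3T3-L1 at day 6 against 1588 and 1605 CPM at day 0. The sum over the list therefore overlapped between days in BAC and was far higher at day 6 than at day 0 in 3T3-L1. The plot of both changes by gene shows the same separation for most members, and Npc1 and Npc1l1 as those with the higher change in BAC.

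**Figure D4:**
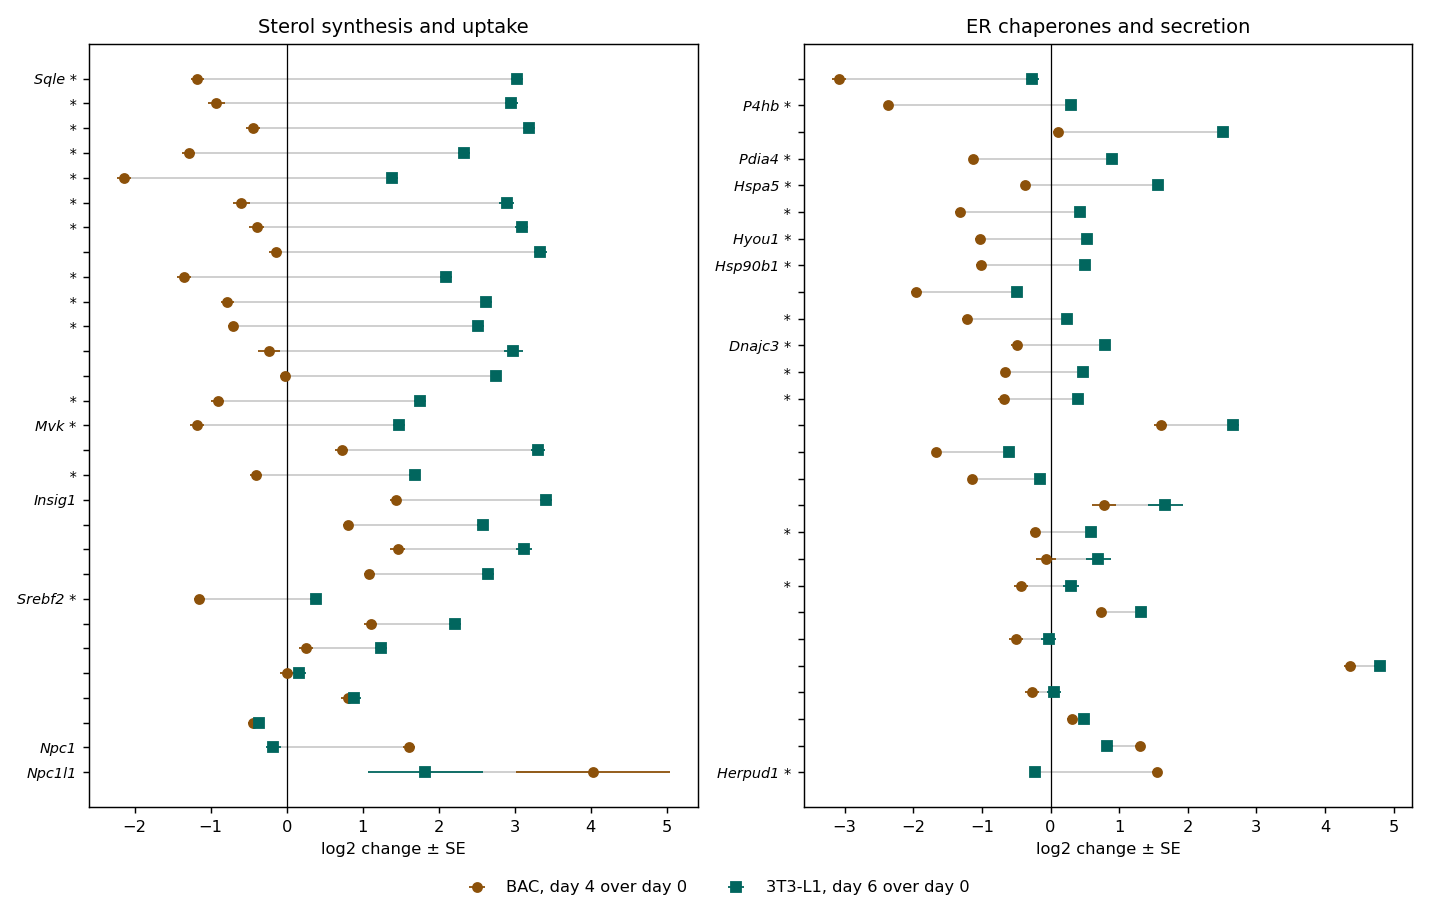
Log2 change ± SE in BAC (circles, day 4 over day 0) and in 3T3-L1 (squares, day 6 over day 0) for 29 sterol genes and 27 endoplasmic reticulum (ER) genes, ordered by the difference between the lines. Genes described in the text are labelled, and asterisks mark the genes called in opposite directions, 14 and 13 in number, and most of these have the BAC circle left of 0 and the 3T3-L1 square right of it.

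The promoter of Mvk is shown because it held 5 matches to the CCAAT box, the core bound by NF-Y, a factor that works beside SREBP at sterol genes, in the 250 bases before its start (chr5:114444019-114444268, plus strand, GRCm38.p6, RefSeq start). Capitals mark the letters CCAAT on either strand.
Mvk: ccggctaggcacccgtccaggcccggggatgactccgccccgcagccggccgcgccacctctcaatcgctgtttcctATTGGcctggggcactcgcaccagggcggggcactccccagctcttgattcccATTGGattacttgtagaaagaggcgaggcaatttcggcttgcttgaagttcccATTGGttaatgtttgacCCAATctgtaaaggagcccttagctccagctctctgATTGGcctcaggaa
In windows of 250 bases before to 50 bases after the start, CCAAT on either strand was found in 49.6% of 554 promoters of genes that fell in BAC and rose in 3T3-L1, in 39.2% of 411 promoters of genes that rose in BAC and fell in 3T3-L1, in 43.3% of 9894 promoters of all genes tested and in 37.4% of all 32851 promoters in the table. The sterol regulatory element TCACNCCAC was found in 0.903%, 1.22%, 1.39% and 1.24% of the same sets. Mvk was the 1 named sterol gene with a promoter available, and its window held no sterol regulatory element.

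Of 27 fatty acid synthesis genes, 23 rose in BAC and 25 rose in 3T3-L1, against 37.7% and 36.7% of all genes tested. In this list 3 genes (11.1%) moved in opposite directions, against 9.96% of all genes tested. Fads1, the delta-5 desaturase of polyunsaturated fatty acids, had 309 and 270.3 CPM in BAC at day 4 against 368 and 396 CPM at day 0, and 483 and 505 CPM in 3T3-L1 at day 6 against 179.9 and 184 CPM at day 0. Fads2, the delta-6 desaturase, changed by -0.23 ± 0.07 in BAC and 1.94 ± 0.07 in 3T3-L1, and Elovl1, which elongates very long fatty acids, by -0.91 ± 0.09 in BAC and 0.51 ± 0.08 in 3T3-L1. The list as a whole had a median change of 2.28 in BAC and 3.30 in 3T3-L1.

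Cytosolic ribosomal proteins were the largest group in the other direction. These proteins form the 2 subunits of the ribosome, and their transcripts share a pyrimidine tract at the start that ties their translation to growth signals. Of 83 genes tested, 56 (67.5%) rose in BAC and fell in 3T3-L1, none did the reverse, and 81 had a higher change in BAC by the interaction test, against 25.3% of all genes. The median change was 0.35 in BAC and -1.30 in 3T3-L1, and the fall in 3T3-L1 was the larger part: 44 of the 56 fell by 2-fold or more there, and 4 rose by 2-fold or more in BAC. The summed level of the list was 46910 and 43530 CPM in BAC at day 4 against 36710 and 34680 CPM at day 0, and 16130 and 15760 CPM in 3T3-L1 at day 6 against 40290 and 37160 CPM at day 0. At day 0 the lines were thus close in this sum, and after differentiation both BAC libraries lay above both 3T3-L1 libraries. With library size alone, the number of opposite members was 38 and the BAC median 0.11.

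Among single ribosomal genes, Rpl36 had 219 and 244 CPM in BAC at day 4 against 48.1 and 95.1 CPM at day 0, and 109 and 90.7 CPM in 3T3-L1 at day 6 against 186 and 172 CPM at day 0. Rpl35a had 280.1 and 256 CPM in BAC at day 4 against 86.3 and 86.7 CPM at day 0, and 20.5 and 21.1 CPM in 3T3-L1 at day 6 against 50.4 and 35.6 CPM at day 0, with changes of 1.63 ± 0.09 in BAC and -1.05 ± 0.13 in 3T3-L1. The 2 BAC libraries of day 0 were far apart for Rpl36. Rpl38 changed by 0.86 ± 0.08 in BAC and -1.08 ± 0.09 in 3T3-L1, and Rps29 by 0.79 ± 0.08 in BAC and -1.49 ± 0.09 in 3T3-L1. The days did not overlap in either line for any of these 4 genes, which the rule for opposite movers largely fixes. Rpl12, chosen after its values were seen, fell in both lines, by less in BAC, with -0.58 ± 0.07 in BAC and -1.93 ± 0.07 in 3T3-L1. Ribosomal protein genes have many near-identical pseudogene copies, and reads that map to several places can be split between them, so single values are uncertain. In 5 of the 83 genes the mean level was 10-fold or more higher in BAC than in 3T3-L1 libraries, for example Rps2 with a mean of 902.3 CPM in BAC and 23.1 CPM in 3T3-L1 libraries, and without these 5 genes 54 of 78 moved in opposite directions.

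**Figure D5:**
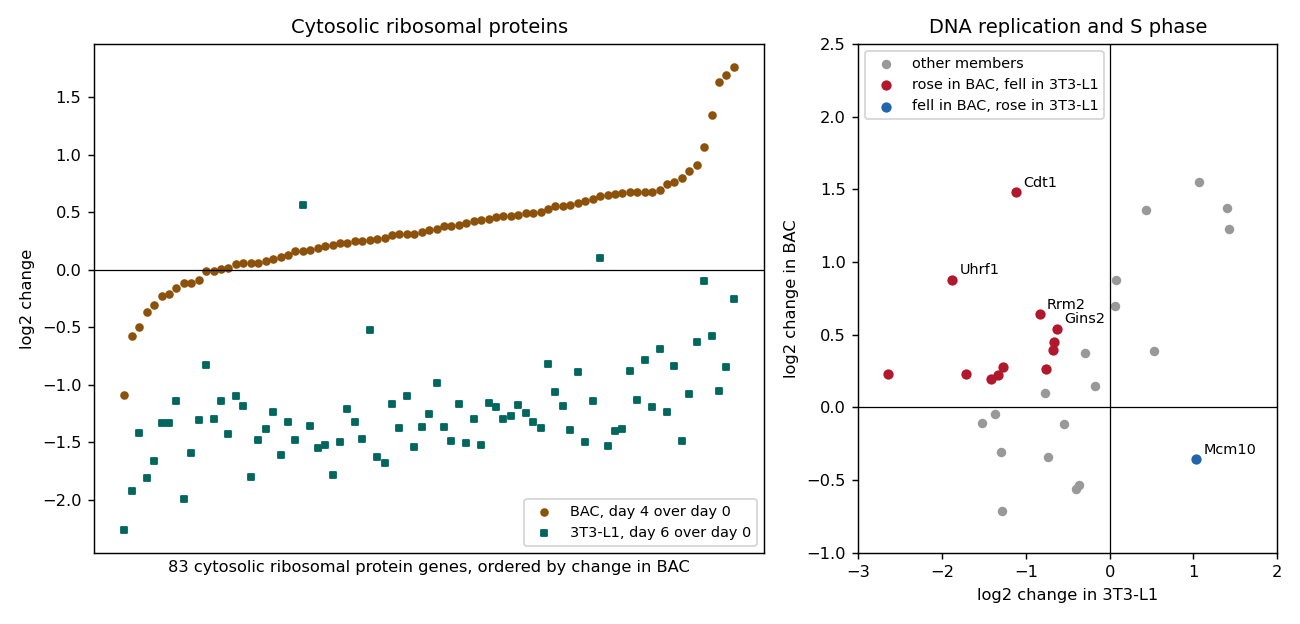
Left, log2 change of 83 cytosolic ribosomal protein genes in BAC (circles) and in 3T3-L1 (squares), with genes ordered by their change in BAC: most circles lie above 0 and all but 2 squares below it. Right, log2 change in BAC against log2 change in 3T3-L1 for 31 DNA replication genes, with the 12 that rose in BAC and fell in 3T3-L1 in red and Mcm10 in blue.

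In other lists of protein synthesis genes, opposite movers made up 14.8% of ribosome biogenesis genes and 15% of cytosolic aminoacyl-tRNA synthetases, against 9.96% of all genes tested. Of 27 ribosome biogenesis genes, 3 rose in BAC and fell in 3T3-L1, namely Npm3, a nucleophosmin family chaperone, with 0.66 ± 0.11 in BAC and -1.05 ± 0.13 in 3T3-L1, Nop56, a box C/D snoRNP protein, with 0.67 ± 0.07 in BAC and -0.36 ± 0.08 in 3T3-L1, and Fbl, the rRNA methyltransferase fibrillarin, with 0.23 ± 0.08 in BAC and -0.85 ± 0.10 in 3T3-L1. Polr1a, the largest subunit of RNA polymerase I, did the reverse with -0.20 ± 0.08 in BAC and 0.58 ± 0.08 in 3T3-L1. Of 20 cytosolic aminoacyl-tRNA synthetases, 3 rose in BAC and fell in 3T3-L1. Sars, which charges serine tRNA, had 267 and 239.6 CPM in BAC at day 4 against 168 and 176 CPM at day 0, and 226 and 226 CPM in 3T3-L1 at day 6 against 301 and 289 CPM at day 0. Cars, the cytosolic cysteine enzyme, changed by 0.53 ± 0.08 in BAC and -0.23 ± 0.08 in 3T3-L1 and Nars, the asparagine enzyme, by 0.19 ± 0.06 in BAC and -0.50 ± 0.06 in 3T3-L1. The sign of the Nars change in BAC turned with library size alone. Of 76 mitochondrial ribosomal proteins, 74 rose in BAC and 71 rose in 3T3-L1, against 37.7% and 36.7% of all genes tested. A single member of this list, Mrpl23, was called in opposite directions, with 0.83 ± 0.10 in BAC and -0.35 ± 0.14 in 3T3-L1.

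Among DNA replication and S phase genes, most had a higher change in BAC. Their products load and fire the replication helicase and supply nucleotides and chromatin for the new strands, and fibroblasts normally switch them off as they leave the cell cycle. Of 31 genes tested, 12 rose in BAC and fell in 3T3-L1, 1 did the reverse, and 23 had a higher change in BAC by the interaction test. Opposite movers made up 41.9% of the list, against 9.96% of all genes tested. Of all genes, 25.3% had a higher change in BAC by that test. The median change was 0.26 in BAC and -0.68 in 3T3-L1. Uhrf1, which guides maintenance methylation after replication, had 388 and 320.0 CPM in BAC at day 4 against 197 and 188 CPM at day 0, and 8.11 and 9.99 CPM in 3T3-L1 at day 6 against 33.2 and 33.4 CPM at day 0. Cdt1, which loads the helicase at origins, had 243 and 231 CPM in BAC at day 4 against 88.7 and 81.2 CPM at day 0, and 6.78 and 8.65 CPM in 3T3-L1 at day 6 against 18.6 and 14.9 CPM at day 0, with changes of 1.48 ± 0.07 in BAC and -1.12 ± 0.16 in 3T3-L1. Rrm2, the regulated subunit of ribonucleotide reductase, had 111 and 117 CPM in BAC at day 4 against 74.5 and 71.4 CPM at day 0, and 11.99 and 12.7 CPM in 3T3-L1 at day 6 against 23.98 and 19.95 CPM at day 0. In these 3 genes BAC lay above 3T3-L1 at day 0, and further above it after differentiation. Gins2, a subunit of the replicative helicase complex, changed by 0.54 ± 0.08 in BAC and -0.63 ± 0.14 in 3T3-L1. Mcm10, an initiation factor, was the exception with -0.36 ± 0.11 in BAC and 1.03 ± 0.17 in 3T3-L1, and was not called in opposite directions with DESeq2. With library size alone, 8 genes in place of 12 were called. Of the mitosis genes, 24 of 26 fell in BAC, 23 fell in 3T3-L1, and none moved in opposite directions. Of all genes tested, 42.2% fell in BAC and 36.6% in 3T3-L1.

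The promoter of Uhrf1 is shown for its match to TTCCCGCC, a site bound by E2F factors, which is in capitals in the 250 bases before the start (chr17:56303087-56303336, plus strand, GRCm38.p6, RefSeq start).
Uhrf1: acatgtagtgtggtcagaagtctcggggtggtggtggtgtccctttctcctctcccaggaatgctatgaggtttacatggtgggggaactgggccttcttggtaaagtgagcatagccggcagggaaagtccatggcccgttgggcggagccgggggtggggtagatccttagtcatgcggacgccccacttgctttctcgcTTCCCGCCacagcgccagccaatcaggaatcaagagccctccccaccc
On either strand of the same windows as above, TTCCCGCC was found in 6.08% of promoters of genes that rose in BAC and fell in 3T3-L1, in 4.15% of those that fell in BAC and rose in 3T3-L1, in 4.68% of those of all genes tested and in 2.19% of all in the table. For 4 named members of the S phase list with a promoter in the table, 1 held it.

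Of 28 genes of the pentose phosphate and nucleotide list, 4 (14.3%) rose in BAC and fell in 3T3-L1, against 4.21% of all genes tested. None did the reverse, and 2 of these 4, Rrm1 and Rrm2, are also in the replication list. Paics, a bifunctional enzyme of purine synthesis, had 368 and 369.6 CPM in BAC at day 4 against 220.5 and 216 CPM at day 0, and 155 and 175 CPM in 3T3-L1 at day 6 against 280.2 and 273 CPM at day 0. Rrm1, the catalytic subunit of ribonucleotide reductase, changed by 0.45 ± 0.06 in BAC and -0.67 ± 0.07 in 3T3-L1, and Dut, which removes dUTP, by 0.32 ± 0.07 in BAC and -1.13 ± 0.13 in 3T3-L1.

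Endoplasmic reticulum chaperones and secretion genes held opposite movers mainly in 1 direction. The chaperones fold secreted proteins, and collagen-secreting fibroblasts and adipokine-secreting fat cells both use them heavily. Of 27 genes tested, 12 fell in BAC and rose in 3T3-L1, 1 did the reverse, and 23 had a lower change in BAC by the interaction test. Opposite movers made up 48.1% of the list, against 9.96% of all genes tested. Of all genes, 33.7% had a lower change in BAC by that test. The median change was -0.49 in BAC and 0.49 in 3T3-L1. Pdia4, a disulfide isomerase, had 79.05 and 82.9 CPM in BAC at day 4 against 173 and 181 CPM at day 0, and 292 and 277 CPM in 3T3-L1 at day 6 against 159 and 148 CPM at day 0. Hsp90b1, the ER form of HSP90, had 423 and 420.4 CPM in BAC at day 4 against 858 and 849.8 CPM at day 0, and 904 and 939 CPM in 3T3-L1 at day 6 against 670.1 and 627 CPM at day 0. Hyou1, a large HSP70-like chaperone, changed by -1.03 ± 0.07 in BAC and 0.53 ± 0.07 in 3T3-L1, and Dnajc3, a co-chaperone that also restrains eIF2alpha kinases, by -0.49 ± 0.08 in BAC and 0.79 ± 0.07 in 3T3-L1. The summed level of the list was 3741 and 3723 CPM in BAC at day 4 against 6083 and 6246 CPM at day 0, and 10670 and 11050 CPM in 3T3-L1 at day 6 against 6501 and 6089 CPM at day 0. The lines were close at day 0 and far apart afterwards. Herpud1, a membrane protein of ER-associated degradation, was the member that rose in BAC, with 1.55 ± 0.07 in BAC and -0.22 ± 0.07 in 3T3-L1. P4hb and Hspa5, chosen after their values were seen, are a disulfide isomerase that is also a subunit of collagen prolyl hydroxylase and the HSP70 of the ER. P4hb changed by -2.36 ± 0.07 in BAC and 0.30 ± 0.06 in 3T3-L1 and Hspa5 by -0.37 ± 0.06 in BAC and 1.57 ± 0.06 in 3T3-L1. With library size alone, 7 members in place of 12 were called.

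Collagens fell in BAC almost throughout, with 30 of 35 tested genes lower at day 4 and a median change of -3.91. Of all genes tested, 42.2% fell in BAC. Opposite movers made up 25.7% of the collagens, against 9.96% of all genes tested. In 3T3-L1 17 fell and 11 rose, with a median of -0.76, and 8 of those that rose were members of the opposite set. They included network and basement membrane collagens. Col15a1, a collagen of basement membrane zones, had 189 and 175 CPM in BAC at day 4 against 712 and 741 CPM at day 0, and 469.7 and 457 CPM in 3T3-L1 at day 6 against 17.7 and 18.1 CPM at day 0, with changes of -1.998 ± 0.07 in BAC and 4.69 ± 0.08 in 3T3-L1. Col4a1, a chain of the basement membrane network, had 529 and 522 CPM in BAC at day 4 against 1152 and 1269.7 CPM at day 0, and 5147 and 5045 CPM in 3T3-L1 at day 6 against 2333 and 2339.5 CPM at day 0. Col5a3, a minor fibrillar chain, changed by -2.08 ± 0.07 in BAC and 1.57 ± 0.07 in 3T3-L1 and Col7a1, the anchoring fibril collagen, by -2.41 ± 0.12 in BAC and 1.81 ± 0.14 in 3T3-L1. Col27a1, a fibrillar collagen of cartilage, was the exception. It had 95.2 and 93.7 CPM in BAC at day 4 against 20.95 and 16.6 CPM at day 0, and 38.8 and 36.2 CPM in 3T3-L1 at day 6 against 78.99 and 81.3 CPM at day 0. Genes Col4a1 and Col4a2 lie head to head with overlapping exons in the annotation.

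Other matrix genes mostly fell in both lines. Opposite movers made up 8.89% of them, against 9.96% of all genes tested. The share was 12.5% for matrix proteases and inhibitors and 8.57% for integrins, laminins and adhesion genes. Of 45 other matrix genes, 44 fell in BAC, 37 fell in 3T3-L1, and 4 were called lower in BAC and higher in 3T3-L1. Of all genes tested, 42.2% fell in BAC and 36.6% in 3T3-L1. Mfap4, a microfibril protein, had 0 and 0 CPM in BAC at day 4 against 12.2 and 10.2 CPM at day 0, and 25.3 and 22.8 CPM in 3T3-L1 at day 6 against 13.6 and 9.83 CPM at day 0. Against a floor of 3 counts it was 64.6-fold lower in BAC at day 4 than at day 0. Loxl2, a lysyl oxidase that crosslinks collagen, changed by -3.41 ± 0.11 in BAC and 1.12 ± 0.38 in 3T3-L1, Nid1, the basement membrane linker nidogen, by -2.71 ± 0.07 in BAC and 0.36 ± 0.07 in 3T3-L1, and Lum, a small leucine-rich proteoglycan, by -2.36 ± 0.26 in BAC and 0.31 ± 0.09 in 3T3-L1. Of 32 matrix proteases and inhibitors, 4 moved this way. Mmp19, a matrix metalloproteinase, had 42.8 and 45.8 CPM in BAC at day 4 against 137 and 142 CPM at day 0, and 195 and 208 CPM in 3T3-L1 at day 6 against 119 and 124 CPM at day 0. Its changes were -1.66 ± 0.07 in BAC and 0.73 ± 0.06 in 3T3-L1. Adamts12 changed by -1.96 ± 0.09 in BAC and 0.67 ± 0.07 in 3T3-L1 and Adamts9, a versicanase, by -0.37 ± 0.14 in BAC and 1.34 ± 0.08 in 3T3-L1. Of 35 integrins, laminins and adhesion genes, Lamb1 and Lamc1, chains of laminin, fell in BAC and rose in 3T3-L1, with -0.45 ± 0.06 in BAC and 0.31 ± 0.06 in 3T3-L1 and -0.47 ± 0.07 in BAC and 0.19 ± 0.07 in 3T3-L1. The sign of the Lamc1 change in 3T3-L1 turned with library size alone. Itga3, the integrin alpha 3 chain, did the reverse and had 16.1 and 11.7 CPM in BAC at day 4 against 8.57 and 7.39 CPM at day 0, and 1.45 and 1.22 CPM in 3T3-L1 at day 6 against 7.73 and 7.54 CPM at day 0.

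In the TGF-beta and BMP pathway, genes that fell in BAC and rose in 3T3-L1 included the ligand genes Inhbb, Tgfb1 and Tgfb2 and the receptor gene Tgfbr1, and Id1, Id2 and Ltbp2 did the reverse. TGF-beta restrains adipogenesis and drives matrix production, and ID proteins are classic targets of BMP signals. Of 42 genes tested, 3 rose in BAC and fell in 3T3-L1 and 5 did the reverse, beside the median changes of -1.13 in BAC and -0.91 in 3T3-L1. Opposite movers made up 19.0% of the list, against 9.96% of all genes tested. Among ligands, Tgfb2 had 1.498 and 1.17 CPM in BAC at day 4 against 35.9 and 33.9 CPM at day 0, and 82.2 and 85.7 CPM in 3T3-L1 at day 6 against 39.2 and 41.99 CPM at day 0. Tgfb1 changed by -0.42 ± 0.09 in BAC and 0.37 ± 0.11 in 3T3-L1, and Inhbb is given above. Tgfbr1, the type I receptor, had 18.8 and 18.4 CPM in BAC at day 4 against 56.8 and 54.5 CPM at day 0, and 206 and 216 CPM in 3T3-L1 at day 6 against 69.1 and 71.96 CPM at day 0. Ltbp2, a latent TGF-beta binding protein of microfibrils, had 60.2 and 46.5 CPM in BAC at day 4 against 23.9 and 27.3 CPM at day 0, and 144 and 135 CPM in 3T3-L1 at day 6 against 610.2 and 649 CPM at day 0. Id1 changed by 1.20 ± 0.12 in BAC and -0.75 ± 0.10 in 3T3-L1, in the same directions as Id2, whereas Id3 and Id4 fell in both lines.

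Opposite movers made up 11.1% of Wnt genes and 18.8% of Notch genes, against 9.96% of all genes tested. Of 36 Wnt genes, Wnt4 rose in BAC and fell in 3T3-L1, and 3 did the reverse. Fzd3, a Wnt receptor, had 4.84 and 4.55 CPM in BAC at day 4 against 12.9 and 14.3 CPM at day 0, and 20.9 and 19.9 CPM in 3T3-L1 at day 6 against 5.45 and 6.25 CPM at day 0. Wnt5b, a ligand, had 0.691 and 0.3497 CPM in BAC at day 4 against 3.09 and 1.78 CPM at day 0, and 0.727 and 0.853 CPM in 3T3-L1 at day 6 against 0 and 0 CPM at day 0. Its 13 counts in 3T3-L1 at day 6 against none at day 0 are 5.31-fold against a floor of 3 counts. Lrp5, a Wnt co-receptor, changed by -0.41 ± 0.07 in BAC and 0.25 ± 0.06 in 3T3-L1, and its sign in 3T3-L1 turned with library size alone. Of 16 Notch genes, 3 rose in BAC and fell in 3T3-L1. Jag1, a Notch ligand, had 26.4 and 24.4 CPM in BAC at day 4 against 19.01 and 18.8 CPM at day 0, and 116 and 112 CPM in 3T3-L1 at day 6 against 222 and 227 CPM at day 0. Hes1, a transcriptional target of Notch, changed by 0.30 ± 0.13 in BAC and -1.45 ± 0.14 in 3T3-L1, and Hey1, another target, by 2.30 ± 0.70 in BAC and -1.34 ± 0.32 in 3T3-L1 at levels under 5 CPM.

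Of 22 genes of insulin signalling and the IGF system, 4 fell in BAC and rose in 3T3-L1, and all 4 were ligands or binding proteins. Opposite movers made up 18.2% of this list, against 9.96% of all genes tested. The share was 10.3% for the FGF, PDGF and VEGF list and 11.5% for immediate early genes. Igf2 had 0.576 and 0.117 CPM in BAC at day 4 against 15.5 and 15.9 CPM at day 0, and 33.4 and 26.6 CPM in 3T3-L1 at day 6 against 16.2 and 13.1 CPM at day 0, and Igfbp7, a secreted binding protein, had 44.7 and 35.9 CPM in BAC at day 4 against 323 and 311 CPM at day 0, and 524 and 468 CPM in 3T3-L1 at day 6 against 299.7 and 341 CPM at day 0. Igf1 had 5.88 and 5.71 CPM in BAC at day 4 against 123 and 122 CPM at day 0, and 233 and 225 CPM in 3T3-L1 at day 6 against 192 and 191 CPM at day 0, so that its fall in BAC was large and its rise in 3T3-L1 small, and the sign of that rise turned with library size alone. Of 29 genes of the FGF, PDGF and VEGF systems, Fgfr1 changed by -1.22 ± 0.07 in BAC and 0.53 ± 0.06 in 3T3-L1 and Spry3, a Sprouty inhibitor, by -2.49 ± 0.45 in BAC and 0.86 ± 0.18 in 3T3-L1. Nrp2, a co-receptor of VEGF and semaphorins, did the reverse and had 87.2 and 92.5 CPM in BAC at day 4 against 43.05 and 44.8 CPM at day 0, and 15.9 and 17.1 CPM in 3T3-L1 at day 6 against 136 and 145 CPM at day 0. Of 26 immediate early genes, Fosl1, an AP-1 subunit, changed by -1.62 ± 0.20 in BAC and 2.14 ± 0.16 in 3T3-L1, Dusp6, a phosphatase of ERK, by -1.39 ± 0.33 in BAC and 2.45 ± 0.19 in 3T3-L1 and Ier2 by 0.39 ± 0.15 in BAC and -0.45 ± 0.17 in 3T3-L1. The days of Ier2 overlapped in BAC, as did those of Hes1.

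Of 97 adipogenic and mesenchymal transcription factors, 4 rose in BAC and fell in 3T3-L1 and 4 did the reverse. Opposite movers made up 8.25% of this list, against 9.96% of all genes tested. The share was 5.26% for the preadipocyte list and 7.14% for Hox genes. Tead1, a DNA-binding partner of YAP, had 231 and 261 CPM in BAC at day 4 against 146 and 146 CPM at day 0, and 87.8 and 91.8 CPM in 3T3-L1 at day 6 against 176 and 186 CPM at day 0. Its partner gene Wwtr1, which encodes TAZ, went the other way with -0.29 ± 0.07 in BAC and 0.45 ± 0.07 in 3T3-L1. Irx5 changed by 0.64 ± 0.15 in BAC and -0.79 ± 0.13 in 3T3-L1, Six5 by 0.27 ± 0.08 in BAC and -0.54 ± 0.10 in 3T3-L1 and Klf11, a zinc finger factor, by 0.27 ± 0.12 in BAC and -0.81 ± 0.13 in 3T3-L1. Foxf2, a forkhead factor of mesenchyme, had 0 and 0 CPM in BAC at day 4 against 3.801 and 2.58 CPM at day 0, and 74.8 and 68.8 CPM in 3T3-L1 at day 6 against 19.1 and 19.1 CPM at day 0. Against a floor of 3 counts it was 18.4-fold lower in BAC at day 4 than at day 0. Ebf1, an early B cell factor active in adipocytes, changed by -0.48 ± 0.06 in BAC and 0.19 ± 0.06 in 3T3-L1, and its sign in 3T3-L1 turned with library size alone. In the preadipocyte list 1 of 19 genes moved in opposite directions, Zfp423, a factor that holds white fat cells in the white state, and it had 11.6 and 11.9 CPM in BAC at day 4 against 26.7 and 25.8 CPM at day 0, and 39.1 and 39.2 CPM in 3T3-L1 at day 6 against 18.04 and 17.7 CPM at day 0. Among 28 Hox genes, Hoxa5 changed by 0.20 ± 0.09 in BAC and -1.04 ± 0.16 in 3T3-L1 and Hoxa7 by 0.49 ± 0.15 in BAC and -0.59 ± 0.17 in 3T3-L1, and the sign of the Hoxa5 change in BAC turned with library size alone.

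Interferon response genes fell in BAC, 35 of 39 with a median change of -3.88, and 6 of these rose in 3T3-L1, where 22 of the list fell. Of all genes tested, 42.2% fell in BAC and 36.6% in 3T3-L1. Opposite movers made up 15.4% of the list, against 9.96% of all genes tested. Parp9, a cofactor of the interferon response, had 22.7 and 20.05 CPM in BAC at day 4 against 119 and 151 CPM at day 0, and 49.6 and 45.4 CPM in 3T3-L1 at day 6 against 31.7 and 30.97 CPM at day 0. Gbp3, a guanylate-binding GTPase, had 7.72 and 9.32 CPM in BAC at day 4 against 157 and 174 CPM at day 0, and 6.78 and 2.92 CPM in 3T3-L1 at day 6 against 2.78 and 1.99 CPM at day 0, and Gbp2, a related GTPase, changed by -4.21 ± 0.15 in BAC and 0.50 ± 0.19 in 3T3-L1. The fall in BAC was larger than the rise in 3T3-L1 for Parp9, Gbp3 and Gbp2. The number called was 3 with library size alone and 3 without 3T3-L1 day 6 replicate 1 or without 3T3-L1 day 0 replicate 3. Parp9 was still called under all the alternatives run, and Gbp3 and Gbp2 were not. Gbp genes form a cluster of close copies on chromosome 3, and reads shared between copies can be split.

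The promoters of Gbp3 and Gbp2 are shown because both held the core of the interferon-stimulated response element (GAAA, any 2 bases, GAAA), with its matches on either strand in capitals, in the 250 bases before the start (chr3:142559794-142560043 for Gbp3 and chr3:142620413-142620662 for Gbp2, plus strand, GRCm38.p6, RefSeq starts).
Gbp3: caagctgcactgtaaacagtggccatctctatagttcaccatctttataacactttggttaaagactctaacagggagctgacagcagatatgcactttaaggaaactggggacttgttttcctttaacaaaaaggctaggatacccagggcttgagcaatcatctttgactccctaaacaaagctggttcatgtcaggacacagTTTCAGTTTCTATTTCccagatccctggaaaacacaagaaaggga
Gbp2: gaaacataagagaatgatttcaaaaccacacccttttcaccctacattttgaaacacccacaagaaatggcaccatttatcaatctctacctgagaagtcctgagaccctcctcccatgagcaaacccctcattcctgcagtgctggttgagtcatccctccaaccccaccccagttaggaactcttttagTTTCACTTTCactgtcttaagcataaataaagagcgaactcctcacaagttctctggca
The run in Gbp3 holds 2 overlapping matches. The core was found in 3.43% of promoters of genes that fell in BAC and rose in 3T3-L1, 3.89% of those that rose in BAC and fell in 3T3-L1, 3.75% of those of all genes tested and 3.44% of all in the table.

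Of 22 iron, heme and metallothionein genes, 6 rose in BAC and fell in 3T3-L1, and 2 did the reverse. Opposite movers made up 36.4% of this list and 22.2% of 18 glucocorticoid targets, against 9.96% of all genes tested. Mt2, a metal-binding protein that glucocorticoids and zinc induce, had 294 and 218 CPM in BAC at day 4 against 8.93 and 8.37 CPM at day 0, and 11.02 and 12.3 CPM in 3T3-L1 at day 6 against 23.7 and 19.3 CPM at day 0. Mt1, its neighbour on the same chromosome, had 878 and 709 CPM in BAC at day 4 against 129.5 and 101 CPM at day 0, and 129 and 119 CPM in 3T3-L1 at day 6 against 169 and 149.9 CPM at day 0. Slc25a37, the mitochondrial iron importer mitoferrin-1, changed by 0.74 ± 0.09 in BAC and -1.61 ± 0.10 in 3T3-L1, and Slc40a1, the iron exporter ferroportin, by 1.28 ± 0.13 in BAC and -0.49 ± 0.14 in 3T3-L1. Hmox1, which degrades heme, had 99.2 and 82.3 CPM in BAC at day 4 against 124 and 130.2 CPM at day 0, and 978 and 1052 CPM in 3T3-L1 at day 6 against 225 and 212 CPM at day 0. Cp, the ferroxidase ceruloplasmin, changed by -1.88 ± 0.08 in BAC and 1.61 ± 0.07 in 3T3-L1. Mt1, Mt2 and Fkbp5 also make up 3 opposite movers among 18 glucocorticoid targets. Fkbp5, a co-chaperone of the glucocorticoid receptor, had 134 and 117 CPM in BAC at day 4 against 32.97 and 36.1 CPM at day 0, and 23.7 and 25.5 CPM in 3T3-L1 at day 6 against 43.8 and 44.9 CPM at day 0. Errfi1, an inhibitor of EGF receptor signalling, did the reverse with -2.02 ± 0.08 in BAC and 0.86 ± 0.11 in 3T3-L1.

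Amino acid and one-carbon metabolism held opposite movers in both directions. They made up 13.0% of the integrated stress response list and 19.2% of amino acid transporters, against 9.96% of all genes tested. Of 23 genes of the integrated stress response and serine synthesis, 3 rose in BAC and fell in 3T3-L1. Shmt2, the mitochondrial serine hydroxymethyltransferase, had 322 and 281 CPM in BAC at day 4 against 121 and 120.2 CPM at day 0, and 43.5 and 46.9 CPM in 3T3-L1 at day 6 against 63.5 and 64.4 CPM at day 0. Shmt1, the cytosolic form, changed by 1.995 ± 0.09 in BAC and -0.37 ± 0.12 in 3T3-L1 and Aldh1l2, which oxidises mitochondrial formyl-folate, by 0.59 ± 0.08 in BAC and -0.27 ± 0.08 in 3T3-L1. Of 26 amino acid transporters, Slc3a2, the heavy chain of several exchangers including that for cystine, had 194 and 185 CPM in BAC at day 4 against 97.6 and 102 CPM at day 0, and 139 and 139 CPM in 3T3-L1 at day 6 against 168 and 170.4 CPM at day 0, and Slc7a1, a cationic transporter, changed by 0.73 ± 0.10 in BAC and -0.31 ± 0.09 in 3T3-L1. Slc38a9, a lysosomal arginine sensor, changed by 0.33 ± 0.11 in BAC and -0.26 ± 0.11 in 3T3-L1. Slc38a6 and Slc6a6, the taurine transporter, did the reverse with -0.61 ± 0.12 in BAC and 0.69 ± 0.10 in 3T3-L1 and -0.22 ± 0.08 in BAC and 0.30 ± 0.08 in 3T3-L1, and the days of Slc6a6 overlapped in BAC.

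The study centred on cysteine metabolism. Of 28 genes of cysteine, methionine and sulfide metabolism, 24 rose in BAC and 16 rose in 3T3-L1, the median change was 0.94 in BAC and 0.39 in 3T3-L1, and 17 had a higher change in BAC by the interaction test. Of all genes tested, 37.7% rose in BAC, 36.7% rose in 3T3-L1 and 25.3% had a higher change in BAC. Of these 28, 3 (10.7%) moved in opposite directions, against 9.96% of all genes tested. Ahcy, which hydrolyses S-adenosylhomocysteine, had 174 and 179.7 CPM in BAC at day 4 against 113 and 106 CPM at day 0, and 30.3 and 28.01 CPM in 3T3-L1 at day 6 against 41.1 and 41.6 CPM at day 0, and its difference of 1.19 ± 0.11 had an edgeR adjusted p of 1.3e-09. Ado, a thiol dioxygenase, changed by 0.34 ± 0.08 in BAC and -0.23 ± 0.10 in 3T3-L1, and Cars is given above. Ahcy was still called in opposite directions under all the alternatives run, and Ado and Cars were not. Genes of the same route that did not move in opposite directions still differed in size. Cdo1, cysteine dioxygenase, rose in both lines and had 424 and 465 CPM in BAC at day 4 against 14.1 and 15.7 CPM at day 0, and 182 and 182 CPM in 3T3-L1 at day 6 against 51.1 and 40.4 CPM at day 0, a difference of 2.90 ± 0.14. Mat2a and Mat2b, subunits of the enzyme that makes S-adenosylmethionine, had differences of 0.81 ± 0.09 and 1.45 ± 0.10. Ahcyl1, a relative of Ahcy, had a difference of 1.95 ± 0.09, Got1, a cytosolic aspartate aminotransferase, one of 1.97 ± 0.14 and Txn2, mitochondrial thioredoxin, one of 0.96 ± 0.11. In 3T3-L1 the changes of Mat2b, Ahcyl1 and Got1 were -0.08 ± 0.07, -0.06 ± 0.07 and 0.08 ± 0.09 and did not pass the test. Cars2, the mitochondrial cysteinyl-tRNA synthetase, had 31.5 and 24.1 CPM in BAC at day 4 against 20.6 and 20.7 CPM at day 0, and 28.9 and 32.9 CPM in 3T3-L1 at day 6 against 28.3 and 27.6 CPM at day 0, and its difference of 0.29 ± 0.17 did not pass the interaction test, with an edgeR adjusted p of 0.14.

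Of the lists that define the fat cell, opposite movers made up 1.28% of respiratory complex genes and 4.0% each of citrate cycle and lipid droplet genes, against 9.96% of all genes tested. None of 24 general adipocyte genes, of 23 brown fat and thermogenic genes or of 24 fatty acid oxidation genes moved in opposite directions. Of 78 respiratory complex genes, 78 rose in BAC and 73 rose in 3T3-L1, against 37.7% and 36.7% of all genes tested. The 1 respiratory gene in the opposite set was Ndufa4l2, a relative of a complex IV subunit, which had 8.18 and 7.93 CPM in BAC at day 4 against 0.707 and 0.9799 CPM at day 0, and 0 and 0 CPM in 3T3-L1 at day 6 against 0.595 and 0.298 CPM at day 0. Ndufa4l2 had 9 counts in 3T3-L1 at day 0 and none at day 6, 2.45-fold lower against a floor of 3 counts, which is not a lower limit. Its exons overlap those of Shmt2 on the other strand, and no source used here states the counting strand. Reads on the shared stretch can therefore not be assigned to 1 of these 2 genes. In RefSeq this stretch is short: Ndufa4l2 ends at 127517154 and Shmt2 begins at 127517123 on chromosome 10. Of 25 citrate cycle genes, Idh2, mitochondrial isocitrate dehydrogenase, was the 1 member with 1.25 ± 0.06 in BAC and -0.16 ± 0.07 in 3T3-L1, and of 25 lipid droplet genes Plin3, a perilipin present in most cells, was the 1 member and had 183 and 168 CPM in BAC at day 4 against 116 and 113 CPM at day 0, and 61.2 and 54.7 CPM in 3T3-L1 at day 6 against 148 and 143 CPM at day 0.

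Of 14 white fat enriched genes, 9 fell in BAC, 10 rose in 3T3-L1, and 5 (35.7%) did both, against 5.75% of all genes tested. Nnmt, nicotinamide N-methyltransferase, had 10.4 and 7.81 CPM in BAC at day 4 against 29.2 and 26.5 CPM at day 0, and 88.6 and 86.4 CPM in 3T3-L1 at day 6 against 30.7 and 27.3 CPM at day 0. Trim14, a mitochondrial antiviral adaptor, had 5.19 and 5.94 CPM in BAC at day 4 against 9.19 and 12.7 CPM at day 0, and 15.98 and 12.9 CPM in 3T3-L1 at day 6 against 0.198 and 0.199 CPM at day 0. Enpep and Igf1 are given above. Single members of other lists moved in the same directions. The lists of Abcd2, Pfkfb4, P4ha2, Plxna2, Myh10, Cfb and Hsp90aa1 held 1 opposite mover each. This was 1.92% to 5.56% of each list, against 9.96% of all genes tested. Abcd2, a peroxisomal importer of very long fatty acids, had 2.65 and 3.61 CPM in BAC at day 4 against 6.54 and 6.59 CPM at day 0, and 195 and 183 CPM in 3T3-L1 at day 6 against 7.63 and 7.15 CPM at day 0. Pfkfb4, a regulator of glycolysis, changed by -0.63 ± 0.14 in BAC and 1.54 ± 0.12 in 3T3-L1, P4ha2, a collagen prolyl hydroxylase, by -0.92 ± 0.10 in BAC and 0.996 ± 0.08 in 3T3-L1, Plxna2, a semaphorin receptor, by -1.07 ± 0.10 in BAC and 0.58 ± 0.08 in 3T3-L1, Myh10, a non-muscle myosin, by -0.73 ± 0.08 in BAC and 0.79 ± 0.08 in 3T3-L1, Cfb, complement factor B, by -0.41 ± 0.16 in BAC and 1.02 ± 0.18 in 3T3-L1 and Hsp90aa1, the inducible cytosolic HSP90, by -0.33 ± 0.07 in BAC and 0.47 ± 0.07 in 3T3-L1. Krt19, an epithelial keratin, had 6 counts in 3T3-L1 at day 6 and none at day 0, and -3.23 ± 0.46 as its change in BAC. Its 6 counts are 2.45-fold against a floor of 3 counts, which is not a lower limit.

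The proteasome and the lysosome degrade proteins. Opposite movers made up 13.5% of proteasome and 12.5% of lysosomal genes, against 9.96% of all genes tested. The share was 11.1% for glutathione and oxidant defence genes and 10.0% for p53 targets. Of 37 proteasome subunits, 5 fell in BAC and rose in 3T3-L1 and none did the reverse, while the list as a whole had a median change of 0.12 in BAC and 0.56 in 3T3-L1. Psmd1, a scaffold of the regulatory particle, had 122 and 109 CPM in BAC at day 4 against 163 and 174 CPM at day 0, and 286 and 273 CPM in 3T3-L1 at day 6 against 139.9 and 135 CPM at day 0. Psmc2, Psmc5 and Psmd7 changed by -0.36 ± 0.08 in BAC and 0.42 ± 0.08 in 3T3-L1, by -0.23 ± 0.08 in BAC and 0.56 ± 0.08 in 3T3-L1 and by -0.29 ± 0.08 in BAC and 0.47 ± 0.07 in 3T3-L1. Of 48 lysosomal genes, 3 moved in each direction. Atp6v0a1 and Atp6v0c, subunits of the membrane sector of the proton pump, fell in BAC with -0.90 ± 0.07 in BAC and 0.54 ± 0.07 in 3T3-L1 and -0.51 ± 0.07 in BAC and 0.22 ± 0.08 in 3T3-L1, as did Lipa, lysosomal acid lipase, with -0.27 ± 0.07 in BAC and 0.17 ± 0.08 in 3T3-L1. Atp6v1g1 and Atp6v1g2, subunits of its soluble sector, rose in BAC with 0.61 ± 0.08 in BAC and -0.35 ± 0.07 in 3T3-L1 and 0.48 ± 0.18 in BAC and -0.95 ± 0.22 in 3T3-L1, as did Mcoln1, a lysosomal calcium channel, with 0.35 ± 0.07 in BAC and -0.35 ± 0.07 in 3T3-L1. The signs of Atp6v0c and Lipa in 3T3-L1 turned with library size alone. Of 36 genes of glutathione and oxidant defence, Prdx6, a peroxiredoxin, rose in BAC with 0.77 ± 0.08 in BAC and -0.23 ± 0.09 in 3T3-L1, and Hmox1, Gstm1 and Sod3 fell, Gstm1, a glutathione transferase, with -0.26 ± 0.06 in BAC and 0.22 ± 0.07 in 3T3-L1. The signs of Gstm1 and Sod3 in 3T3-L1 also turned with library size alone. Of 20 targets of p53, Trp53inp1 rose in BAC with 1.85 ± 0.10 in BAC and -1.15 ± 0.10 in 3T3-L1, and Ccng1, a cyclin, did the reverse with -0.76 ± 0.07 in BAC and 0.34 ± 0.06 in 3T3-L1.

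Of 179 genes looked up in the GENCODE M21 annotation, 50 have exons that overlap those of another gene, on the other strand for 44 and on the same strand for 10, among them Ntn3 with Tbc1d24, Tbc1d8 with Rpl31, Paics with Ppat, Cp with Hps3 and Fosl1 with Ccdc85b. Their reads and those of the partner may be mixed. The members with the largest changes in 3T3-L1 or BAC include genes with few counts: among the 45 genes with 2-fold changes that rose in BAC, 5 in BAC and 9 in 3T3-L1 averaged under 10 counts a library, and among the 119 that fell in BAC 14 in BAC and 27 in 3T3-L1 did.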

How the data were processed

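Poly(A) RNA of 8 libraries was sequenced. The deposited values were raw counts per gene symbol, which the authors made from reads mapped to the mouse genome, in 1 table for each line. The study's methods name STAR and HTSeq, and the submitters' processing notes list Bowtie2, RSEM 1.3.1, DESeq2 1.4.5 and mm10. The counting strand is not given in these sources.

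The tables were joined on 21828 symbols present once in each, which left out 14148 rows of the BAC table holding up to 2.19% of its counts. After filterByExpr (minimum count 10), 12863 genes were fitted once over the 8 libraries with TMM factors and the edgeR 4.0.16 quasi-likelihood test in R 4.3.3, with a Benjamini-Hochberg threshold of 0.05. The contrasts were BAC day 4 over day 0, 3T3-L1 day 6 over day 0, and their difference. The SE is the absolute log2 change over the root of its F statistic. Replicates differed beyond counting noise, and the exact intervals cover counting error only. A fold against a group without counts sets that group to a floor of 3 counts. It takes the counts of the other group as exact and is not a confidence limit. Library totals were 9045849 to 10160636 counts. The SE also carries the spread between the 2 libraries of a group.

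Opposite movers with a mean log2 CPM of 2 or more were ranked by the smaller absolute change, predicted genes left out, and the first 15 in each direction were named, with up to 4 in each direction for each list. Members and lists were chosen with earlier results of these data known. Promoters came from RefSeq (GRCm38.p6), in a table that matched 965 opposite movers, and gene overlaps from GENCODE M21. Alternatives were library size alone, upper-quartile factors, DESeq2 1.42.0, other filters, separate fits, a replicate block and leaving out each library. A few of the genes that the rule names are not reported here.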

Additional observations from a re-analysis of the deposited data

Results flagged for a closer look

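The interaction of line and day differed for 3257 genes whose change was higher in BAC and 4333 whose change was lower in BAC, by the edgeR test of the difference itself. Among the cysteine genes of the study, the difference between the change in BAC and that in 3T3-L1 passed this test for Cdo1 (2.90), Got1 (1.97), Ahcyl1 (1.95), Mat2b (1.45), Txn2 (0.96) and Mat2a (0.81), all on the log2 scale. Among the genes used to check the labels, it passed for Adipoq (-6.44), Fabp4, a fatty acid carrier (-2.27), and Pparg, the master regulator of adipogenesis (-2.17), each of which rose in both lines and by less in BAC. Symbols outside the 3T3-L1 table held up to 2.19 percent of the counts of a BAC library and entered no comparison.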

How the results depend on the processing

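The numbers of genes called in each contrast stayed within 1.5 times the reported ones under every alternative run. Leaving out 1 library gave 2856 to 3747 and 3352 to 4276 interaction genes, 440 to 663 and 497 to 740 opposite movers, and 40 to 66 and 93 to 119 of them with 2-fold changes, each range with the higher change in BAC first. Under all alternatives, 225 of the 542 and 271 of the 739 opposite movers were still called, as were 28 of the 45 and 76 of the 119 with 2-fold changes. Genes described above that were not still called under all of them include Cntfr, Loxl2, Mt1, Idh2, Shmt1, Jag1, Fbl and Dut. Psmc2, Psmc5, Wwtr1, Tgfb1, Cars, Ado, Gbp2 and Gbp3 are others. The interaction genes split into 3874 higher and 3794 lower in BAC with upper-quartile factors. The numbers of opposite list members, recomputed by a choice made after seeing the data, moved by over 1.5 times for endoplasmic reticulum genes (7 with library size alone) and interferon genes (3 with library size alone and without 3T3-L1 day 6 replicate 1 or 3T3-L1 day 0 replicate 3). Library size alone turned the sign of the BAC change of Nars (-0.0402) and Hoxa5 (-0.0304) and of the 3T3-L1 change of Igf1 (-0.0306), Gstm1 (-0.0649), Sod3 (-0.1392), Lamc1 (-0.0981), Lrp5 (-0.0395), Atp6v0c (-0.067), Lipa (-0.1156), Ebf1 (-0.1019), Got1 (-0.2136) and Cars2 (-0.1452), and upper-quartile factors that of Got1 (-0.0606). Without 1 library, Got1 in 3T3-L1 lay between -0.0187 and 0.1595. The fitted Ucp1 change in 3T3-L1, which rests on 2 counts, lay between 0.0 and 4.3156 and gives no fold.

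The replicate numbers were not used as pairs, and the labels do not say whether libraries of the same number share a culture. The correlation of deviations was 0.024 in BAC and -0.024 for number 2 of 3T3-L1. A single correlation in each line cannot decide whether the libraries were paired. With a replicate block in BAC, 553 and 763 genes moved in opposite directions and 3304 and 4365 passed the interaction test.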
